A study of Mus musculus with 36 samples.

Results

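This comparison sets the hippocampus of 5 *Pogz* cKO-/- mice against that of 6 controls, 11 of the 36 RNA-seq libraries in the series. Its members were fixed by genotype and tissue label. The cKO-/- mice carried the genotype NesCre/+; Pogzfl/fl and were animals Sample_936, Sample_1219, Sample_1371, Sample_1379 and Sample_1385 (3 males and 2 females), while controls were Pogzfl/fl without Cre and were animals Sample_1129, Sample_1155, Sample_1170, Sample_1172, Sample_1190 and Sample_1192 (3 males and 3 females). A cKO-/- female, animal Sample_1160, was kept apart as a check because its library departed from the others by transcript length, with Spearman rho = -0.662 across genes between log2 length and its deviation from the mean of the 11, against -0.260 to 0.257 within the 11. Mice were adult and of strain C57Bl/6, and poly(A) RNA was read from whole dissected hippocampi. Cre was expressed from the *Nestin* promoter, which is active in neural progenitors and their progeny, and cells of other origin in the dissected tissue, such as microglia, largely keep the floxed allele. The Cre transgene and the loss of *Pogz* cannot be told apart between these groups. Levels in the 6 cKO+/- mice (NesCre/+; Pogzfl/+), which carry the same Cre, are given for a few genes only. These are *Pogz*, *Gm364*, *Akr1c13*, *9430018G01Rik*, *Fkbp5* and *Hif3a*, and they do not stand for the other changed genes. In bulk tissue, fewer cells of a type and less RNA per cell cannot be told apart either.

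POGZ is a nuclear zinc-finger protein that binds heterochromatin protein 1 and takes part in transcriptional repression, and mutations of the human gene cause an intellectual disability syndrome with autistic features. The hippocampus, a seat of memory and spatial coding, is built around a chain of excitatory neurons that runs from dentate granule cells through CA3 to CA1 pyramidal cells. Its dentate gyrus keeps neural stem cells into adulthood, and its neurons and astrocytes respond strongly to adrenal glucocorticoids.

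Depth ranged from 17609321 to 45544188 counts. The median depth was 26090969 counts in cKO-/- and 40579363 in controls. All controls and animal Sample_1219 had numbers from Sample_1129 to Sample_1219, whereas animals Sample_936, Sample_1371, Sample_1379 and Sample_1385 lay outside that run, and what the numbers stand for is not given in the sources used here. Hippocampal markers were present in every library, with *Prox1* of dentate granule cells between 50.5 and 109.8 CPM (counts per 1000000). Control Sample_1129 also held cerebellar transcripts, with 49.2 CPM of *Gabra6* where the other 10 libraries had at most 1.09. *Ttr*, the transthyretin of choroid plexus, stood at 4571 and 1023 CPM in cKO-/- Sample_1385 and Sample_1219 and at 4534 and 2163 CPM in controls Sample_1129 and Sample_1170, and at most at 8.57 CPM in the other 7.

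*Pogz* itself (chr3:94837567-94883567) was lower in every cKO-/- library. The 5 libraries held 62.2, 68.0, 60.8, 59.5 and 59.1 CPM, in the order of animal numbers used throughout, and controls held 88.8 to 92.4 CPM (median 91.1). Groups did not overlap, and the cKO-/- mean was 68.0% of the control mean (exact permutation test over libraries, two-sided p = 0.00216, the smallest that 462 groupings allow). The log2 fold change was -0.56 ± 0.04 (SE). Since 1 count was kept per gene, exons inside and outside the loxP sites cannot be told apart. The cKO+/- libraries, with 74.1 to 80.01 CPM, lay between the groups. None of the 41 tested genes within 1000000 bases of *Pogz* passed the edgeR test (7 had an unadjusted p under 0.05, and DESeq2 called 1).

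Of 24421 genes in the table, 14212 were above 1 CPM in at least 5 of the 11 libraries and entered edgeR's quasi-likelihood F-test, with a term for sex. At a Benjamini-Hochberg adjusted p under 0.05, 644 genes changed (4.53% of those tested), 286 upward (2.01%) and 358 downward (2.52%). The count was 130 with animal Sample_1160 and ran from 346 to 1363 with 1 library left out. With a term for animals numbered outside the controls' run 49 genes rose and 33 fell, and without animals Sample_1371, Sample_1379 and Sample_1385 34 rose and 31 fell, so that the excess of decreases was lost. Decreases outnumbered increases among small changes. Among the 391 changed genes with a fold change of up to 1.5, 152 were upregulated (38.9%), against 44 of 80 past 2-fold (55.0%) and 15 of 16 past 4-fold (93.8%). Level went with direction as well: of the 273 changed genes with a mean above 5 on the log2 CPM scale 31.1% were upregulated, and of the 54 genes at or below 1 59.3% were. The 5 cKO-/- and 6 control values did not overlap in 506 genes (3.56%), of which 379 were among the 644.

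**Figure D1:**
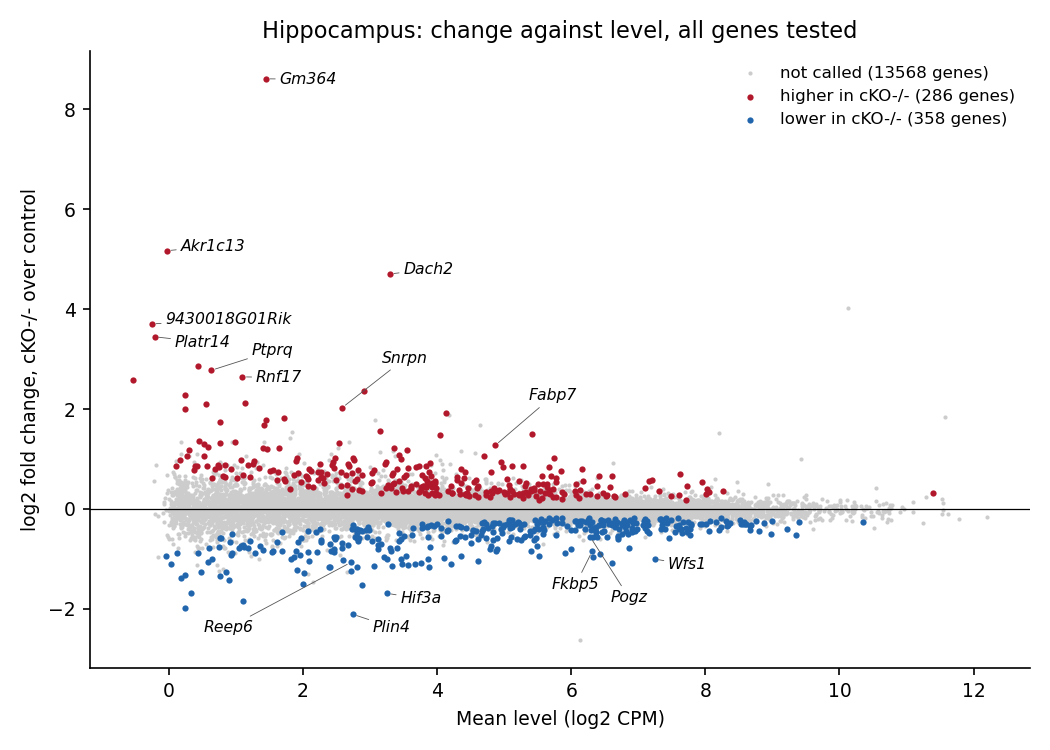
Change against level for all 14212 tested genes. The x axis is the mean level over 11 libraries (log2 CPM) and the y axis the log2 fold change of cKO-/- over control, with upregulated genes in red and downregulated genes in blue. Increases reach 8.61 (*Gm364*), while the largest decrease among changed genes is -2.11 (*Plin4*).

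The genes with the largest increases were near silent in controls. *Gm364* (chrX:57409149-57488771), a predicted gene, had 5.07, 6.23, 7.48, 6.47 and 6.87 CPM in the cKO-/- libraries and 3 reads in all over the 6 controls, 3 of which had none. Its 876 reads in cKO-/- gave a ratio of pooled rates of 492 with a 95% counting interval from 168 to 2390, which covers counting error only. *Akr1c13* (chr13:4191187-4205603), an aldo-keto reductase that acts on steroids and xenobiotics, had 2.15, 2.07, 2.02, 1.66 and 3.13 CPM against at most 0.0862 CPM in any control (14 reads over the 6). In *9430018G01Rik* (chr6:43442429-43474318), an uncharacterised transcript, the values were 1.70, 1.43, 2.26, 2.18 and 1.51 CPM against at most 0.207 CPM. Together with *Platr14*, a long noncoding RNA of pluripotent cells, and *Tgm6*, a transglutaminase, these were the 5 tested genes with every control under 0.5 CPM, and all 5 rose; they met the level minimum through their cKO-/- values, so that a difference was built into their being tested. Reads of *Akr1c13* may be shared with its near relative *Akr1c12*. In the cKO+/- libraries *Gm364* reached at most 0.0422 CPM, *Akr1c13* 0.294 and *9430018G01Rik* 0.253, all below the lowest cKO-/- value.

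The promoters of these genes are printed because genes that rose by over 2-fold had few CpG dinucleotides near their start. Windows of 300 bases around the start of transcription came from RefSeq (GRCm38.p6), with entries for 209 of the 286 upregulated, 252 of the 358 downregulated and 10287 of the other tested genes. The median number of CpG was 11 in upregulated, 20 in downregulated and 21 in unchanged genes. Among the 33 genes with an entry that rose by over 2-fold it was 5 (quartiles 3 and 7), and *Gm364*, with 10, lay above the upper quartile. Genes were not matched for level. The 9710 genes with both an entry and a known transcript GC content were cut into 5 equal classes of 1942 by that content. Upregulated genes had a median of 8 against 21 for unchanged genes in the lowest class (93 and 1845 genes) and of 13, 18, 11.5 and 22 against 21, 20, 20 and 21 in the next 4, so that the difference was small in the third class and not seen in the highest, which held 7 upregulated genes. The windows of the 3 genes follow, with each CpG in capitals and 10, 2 and 3 of them, in the order of printing; *Gm364* lies at chrX:57408899-57409198, *Akr1c13* at chr13:4190937-4191236 and *9430018G01Rik* at chr6:43442179-43442478, all on the plus strand.
Gm364: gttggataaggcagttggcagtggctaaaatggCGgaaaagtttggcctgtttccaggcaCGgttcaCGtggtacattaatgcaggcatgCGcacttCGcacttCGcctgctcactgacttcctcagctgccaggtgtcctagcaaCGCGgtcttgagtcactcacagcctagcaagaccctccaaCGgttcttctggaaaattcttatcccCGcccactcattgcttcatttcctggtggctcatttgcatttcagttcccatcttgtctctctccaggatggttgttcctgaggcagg
Akr1c13: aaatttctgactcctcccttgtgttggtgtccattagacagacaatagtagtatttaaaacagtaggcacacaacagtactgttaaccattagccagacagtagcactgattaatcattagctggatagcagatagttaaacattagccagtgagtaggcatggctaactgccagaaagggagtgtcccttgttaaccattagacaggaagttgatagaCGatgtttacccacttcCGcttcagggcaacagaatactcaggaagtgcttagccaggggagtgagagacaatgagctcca
9430018G01Rik: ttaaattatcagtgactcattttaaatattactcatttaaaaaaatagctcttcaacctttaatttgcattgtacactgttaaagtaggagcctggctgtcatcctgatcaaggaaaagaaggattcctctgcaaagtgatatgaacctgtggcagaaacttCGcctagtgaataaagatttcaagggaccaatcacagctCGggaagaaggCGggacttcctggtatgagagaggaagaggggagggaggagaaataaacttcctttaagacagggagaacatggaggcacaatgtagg
CpG count is a property of these windows in the reference, and methylation was not measured here.

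*Dach2* (chrX:113297510-113836386), a transcriptional cofactor of the dachshund family, was the most abundant of the genes that rose by over 4-fold. It had 16.98, 18.2, 25.8, 22.8 and 22.5 CPM, and controls had 0.597 to 1.41 CPM (median 0.758). All 5 libraries exceeded every control, with a mean 25.2-fold that of controls and a log2 change of 4.70 ± 0.18 (edgeR adjusted p = 2.12e-08). Its family member *Dach1* moved the other way, with 1.98, 2.62, 3.15, 3.38 and 4.11 CPM against 4.83 to 9.04 CPM (median 6.89) (-1.16 ± 0.19 on the log2 scale, edgeR adjusted p = 0.00464). The other 6 tested members of the *Dach*, *Eya* and sine oculis families did not pass the test. For *Dach2*, the paper reports from the reads along its exons that a short, uncharacterised transcript starting partway through the gene rose. Counts per gene do not tell it from the full-length transcript.

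Other increases fell in genes of unrelated roles. *Dmp1*, a phosphoprotein of bone and dentine, rose 2.34-fold, from 6.46 ± 0.275 (SD, n = 6) to 15.1 ± 1.09 CPM (n = 5), and its edgeR adjusted p of 1.82e-06 was among the lowest. *4930447C04Rik*, known as *Six6os1* and needed for meiotic chromosome pairing, rose 3.82-fold, and *Rnf17*, a tudor-domain protein of male germ cells, 6.25-fold, with 2.54, 3.55, 5.62, 3.15 and 5.77 CPM against 0.431 to 0.944 CPM (median 0.658). *Rnf17* was the single member to rise among 15 tested of 32 listed germline and meiosis genes, a list that did not hold *4930447C04Rik*. *Scn7a*, a sodium-sensing channel, stood at 13.6 CPM against 2.81 (4.83-fold), and *Snrpn*, an imprinted splicing factor that shares exons with *Snurf* so that its counts are uncertain, at 10.3 against 2.57 (4.02-fold). No other of 33 tested imprinted genes passed the test. Chosen after their values were seen, *Ptprq*, a receptor phosphatase of hair cells, rose 6.71-fold, *Cd36*, a fatty acid receptor, 4.197-fold and *Casp1*, the inflammatory caspase, 2.95-fold, each with groups apart. *Pstpip2*, an adaptor of the cytoskeleton, rose 1.81-fold and *Igbp1b*, a relative of a phosphatase-binding protein, 3.93-fold. *Rnf17*, *Ptprq* and *Igbp1b* met the level minimum through their cKO-/- values, so that a difference was built into their being tested. In animal Sample_1160 *Ptprq* was 0.957 CPM, just above the highest control at 0.852, and *9430018G01Rik* 0.44 CPM, above all controls and below the other cKO-/- animals.

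**Figure D2:**
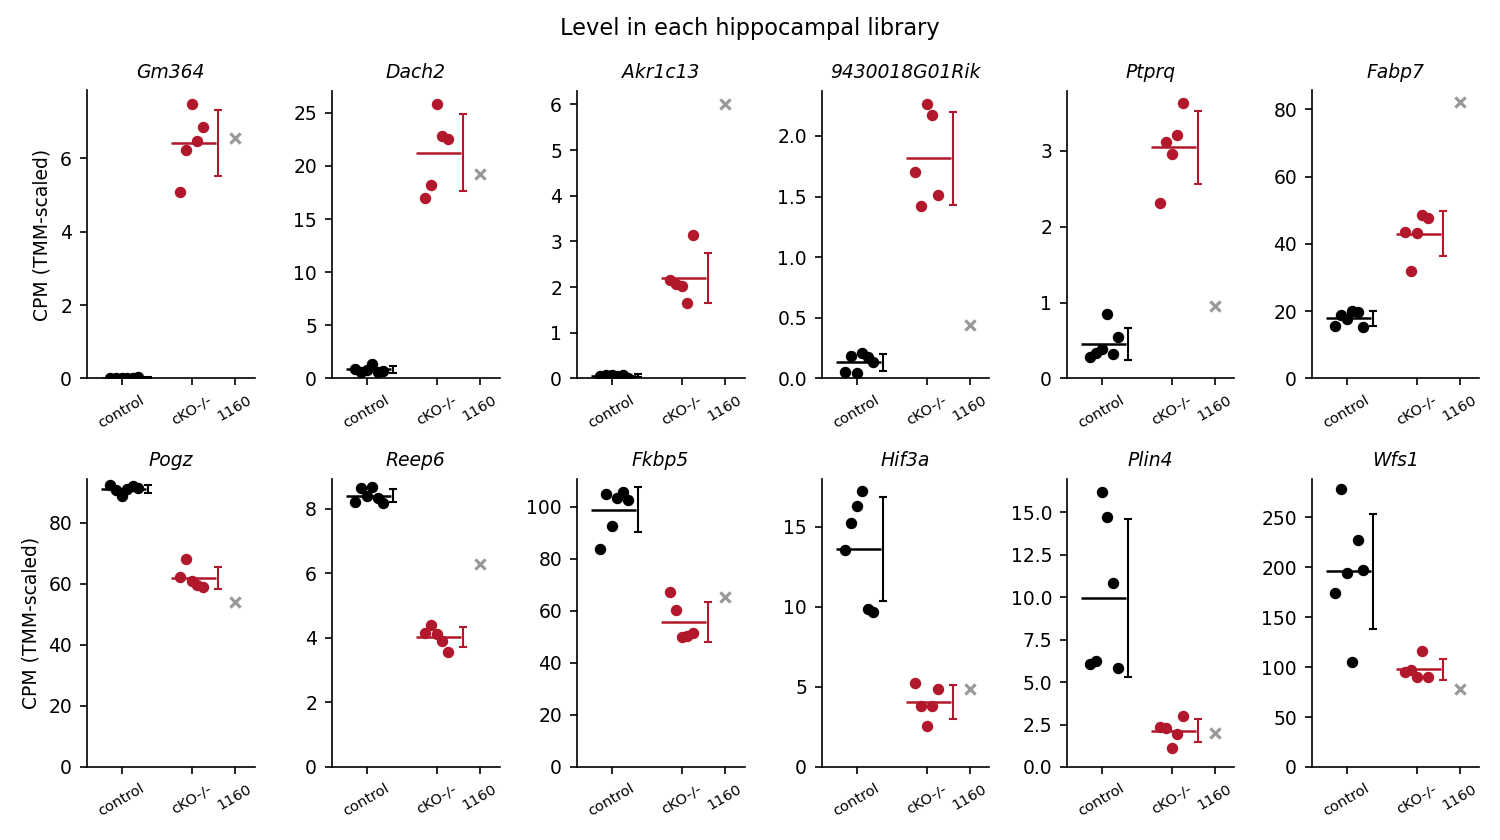
Level of 12 genes in each hippocampal library, in CPM scaled by TMM factors (y axis). Black points are 6 controls and red points 5 cKO-/- libraries, bars give the mean and SD, and the grey cross is cKO-/- animal Sample_1160, which entered neither. Red and black points are apart in every panel except *Wfs1*, where control Sample_1172 (105 CPM) falls among the cKO-/- values.

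Downregulated genes changed less in size. *Reep6*, an endoplasmic reticulum shaping protein, had 4.15, 4.39, 4.12, 3.89 and 3.55 CPM against 8.17 to 8.66 CPM (median 8.36), so that each cKO-/- value was near 4 CPM and each control near 8, and its edgeR adjusted p of 2.44e-05 was the lowest among decreases. *Tnxb*, an extracellular matrix glycoprotein, dropped 2.11-fold, *Card10*, a scaffold of NF-κB signalling, 2.26-fold, *Itga11*, a collagen receptor, 2.23-fold and *Stpg1* 2.83-fold. The 5 largest decreases on the log2 scale were those of *Plin4* (-2.11), *Tmem52* (-1.98), *Atp2c2* (-1.85), *Hif3a* (-1.69) and *Ghsr* (-1.68). *Ghsr*, the receptor of the stomach hormone ghrelin, was at 0.390, 0.437, 0.5256, 0.401 and 0.830 CPM against 1.27 to 2.08 CPM (median 1.70). *Tmem52*, a membrane protein, was the single tested gene with every cKO-/- library under 0.5 CPM. It rested on 54 reads over the 5 cKO-/- libraries against 380 over controls. *Ghsr* and *Tmem52* met the level minimum through their control values, so that a difference was built into their being tested. *Pdzd2*, a PDZ-domain protein, dropped from 103 to 52.7 CPM, the largest loss in CPM among the 12 decreases with the lowest adjusted p.

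Many genes induced by glucocorticoids were lower. Corticosterone enters brain cells and binds the glucocorticoid and mineralocorticoid receptors, which switch on a set of feedback and metabolic genes; a list of 23 such targets was drawn up after values of some of them had been seen, so its direction is no independent evidence. Of the 23, 13 fell and none rose, against 2.52% of all tested genes that fell, with a median log2 fold change of -0.42 against 0.0052 over all genes. In 11 of the 23 every cKO-/- library lay below every control, against 1.96% of all tested genes. *Fkbp5*, a cochaperone that dampens the receptor, was at 67.2, 60.5, 50.1, 50.3 and 51.4 CPM against 83.9 to 106 CPM (median 103) (log2 fold change -0.84 ± 0.08, edgeR adjusted p = 6.06e-05). *Hif3a*, an inhibitory hypoxia factor, was at 5.24, 3.81, 2.55, 3.78 and 4.87 CPM against 9.66 to 17.3 CPM (median 14.4), a 3.37-fold decrease. The highest cKO-/- value of each gene was below the lowest control.

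*Plin4*, which coats lipid droplets, had 2.34, 2.27, 1.13, 1.95 and 3.02 CPM against 5.81 to 16.2 CPM (median 8.52), a 4.66-fold drop with a wide spread among controls. *Tsc22d3*, the anti-inflammatory leucine zipper GILZ, was at 51.7, 58.4, 60.2, 69.3 and 73.7 CPM against 75.7 to 107 CPM (median 94.4). *Mt1* and *Mt2*, metal-binding metallothioneins, were at 155 against 213 and at 81.1 against 123 CPM. *Mertk*, a receptor for engulfing dead cells, dropped 1.52-fold, *Map3k6*, a stress kinase, 2.13-fold and *Gpd1*, an enzyme of glycerol metabolism, 1.32-fold. *Mfsd2a*, a transporter of the blood-brain barrier, *Sult1a1*, a sulfotransferase, *Zbtb16*, a zinc-finger factor, and *Arrdc2*, an arrestin relative, also fell, the last pair with overlapping groups. *Sgk1*, *Per1*, *Klf9*, *Ddit4* and *Nfkbia*, further targets, did not pass the test, and the most negative log2 fold change among them was -0.14 (*Sgk1*). The last 5 of the 23 had positive log2 fold changes and did not pass either, *Angptl4* at 0.37, *Dusp1* at 0.28, *Pdk4* at 0.21, *Cdkn1a* at 0.04 and *Errfi1* at 0.03. None of 5 receptor and steroid enzyme genes passed the edgeR test (1 had an unadjusted p under 0.05, and DESeq2 called 0).

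With animal Sample_1160 added 4 of the 23 fell, and with each library left out in turn 11 to 13 did. With the term for animal numbers none did and the median was -0.17, and without animals Sample_1371, Sample_1379 and Sample_1385 3 did. In the cKO+/- libraries *Fkbp5* ran from 48.3 to 94.4 CPM and *Hif3a* from 3.94 to 20.9, each across the ranges of the cKO-/- and control libraries. The hour of dissection and hormone levels were not in the sources used here, and their part in the result was not tested.

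**Figure D3:**
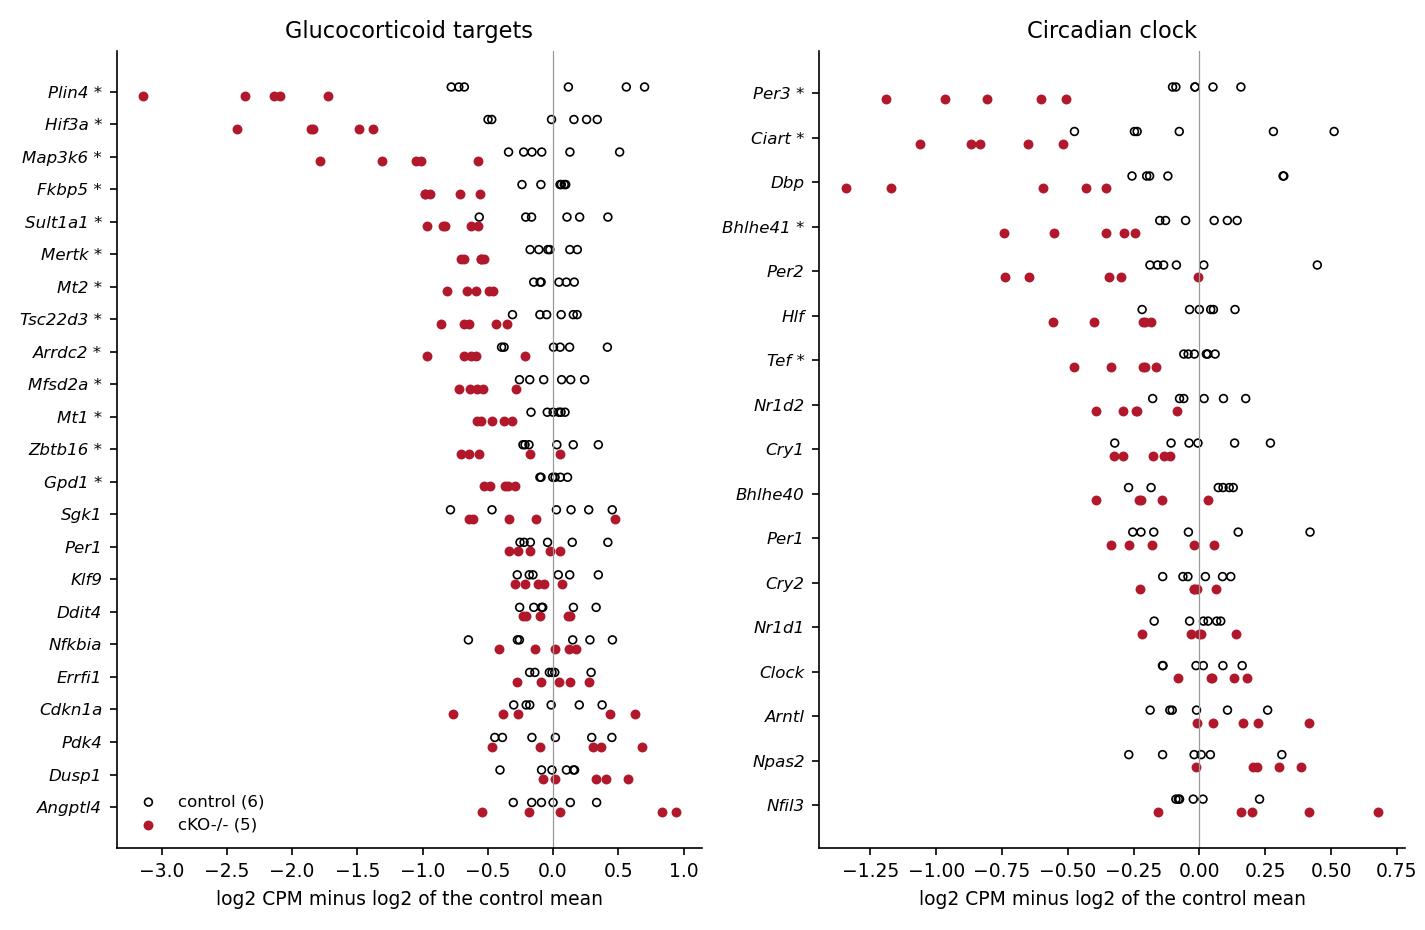
Each library's log2 CPM minus the log2 of the control mean (x axis) for 23 glucocorticoid targets (left) and 17 circadian clock genes (right). Open circles are controls, red points cKO-/-, and a star marks a gene that changed; 13 targets and 4 clock genes are starred, all with a cKO-/- mean below that of controls.

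Fewer clock genes fell. Of 17 tested, 4 fell, against 2.52% of all tested genes, and none rose, and the median log2 fold change was -0.21. *Per3*, a period repressor, was at 55.7, 52.1, 40.4, 45.2 and 34.7 CPM against 73.7 to 88.2 CPM (median 78.2) (log2 fold change -0.80 ± 0.11, edgeR adjusted p = 0.00167). *Ciart*, a repressor of the clock activators, was at 7.36, 5.91, 6.71, 5.78 and 5.06 CPM against 7.59 to 15.03 CPM (median 9.47). *Tef*, an output factor, dropped 1.21-fold and *Bhlhe41*, a clock repressor, 1.34-fold. Groups did not overlap in these 4, nor in *Dbp*, a further output factor whose edgeR adjusted p of 0.0602 missed the threshold. With each library left out in turn 2 to 6 members fell, with animal Sample_1160 or without animals Sample_1371, Sample_1379 and Sample_1385 1 did, and with the term for animal numbers none did.

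Promoters of *Ciart* (chr3:95882179-95882478), *Per3* (chr4:151044616-151044915), *Mt1* (chr8:94178839-94179138) and *Mt2* (chr8:94172368-94172667) are shown because they carry textbook elements of the clock and, for the metallothioneins, of the response to metals. Capitals mark the E-box CACGTG bound by the clock activators in *Ciart*, the D-box TTATGTAA in *Per3*, and the metal response elements TGCACNC and TGCGCNC, read on both strands, in *Mt1* and *Mt2*. *Ciart* and *Per3* are printed from the minus strand and the metallothioneins from the plus strand.
Ciart: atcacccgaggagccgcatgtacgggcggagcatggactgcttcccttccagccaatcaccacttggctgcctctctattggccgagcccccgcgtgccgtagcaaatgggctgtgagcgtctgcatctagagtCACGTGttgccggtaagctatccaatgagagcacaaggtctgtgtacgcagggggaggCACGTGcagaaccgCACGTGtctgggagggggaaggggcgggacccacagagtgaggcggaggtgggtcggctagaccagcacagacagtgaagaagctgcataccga
Per3: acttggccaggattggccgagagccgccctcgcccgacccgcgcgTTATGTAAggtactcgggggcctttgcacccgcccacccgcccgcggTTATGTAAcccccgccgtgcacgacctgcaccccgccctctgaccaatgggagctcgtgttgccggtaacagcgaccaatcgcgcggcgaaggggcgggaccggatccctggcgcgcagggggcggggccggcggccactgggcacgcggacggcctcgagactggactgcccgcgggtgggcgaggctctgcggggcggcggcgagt
Mt1: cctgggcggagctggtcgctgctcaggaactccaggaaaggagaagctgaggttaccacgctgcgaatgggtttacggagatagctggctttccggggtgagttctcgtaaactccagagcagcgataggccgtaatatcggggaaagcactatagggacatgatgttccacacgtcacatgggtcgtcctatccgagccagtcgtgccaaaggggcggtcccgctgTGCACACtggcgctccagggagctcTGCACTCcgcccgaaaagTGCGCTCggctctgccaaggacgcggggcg
Mt2: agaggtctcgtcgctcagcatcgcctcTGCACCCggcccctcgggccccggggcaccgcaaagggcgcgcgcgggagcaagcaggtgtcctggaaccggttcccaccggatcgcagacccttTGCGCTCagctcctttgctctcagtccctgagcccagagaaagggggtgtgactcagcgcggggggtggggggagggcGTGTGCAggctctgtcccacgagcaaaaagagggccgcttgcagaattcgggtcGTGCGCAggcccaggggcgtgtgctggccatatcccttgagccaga
Over 32851 RefSeq promoters the E-box occurred in 7.15%, the D-box in 0.938%, and the metal response elements in 12.6% (TGCACNC) and 15.4% (TGCGCNC). The palindromic consensus of the glucocorticoid response element was also searched, and was found in 0 of the 20 windows of glucocorticoid targets with an entry and in 3 of all 32851; this says only that these letters are not in these windows. Of the clock genes, 3 of the 4 that fell and 2 of 11 others with an entry had an E-box.

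Genes of hippocampal excitatory neurons fell in some members. Among 12 dentate granule cell genes 4 fell and 1 rose, against 2.52% and 2.01% of all tested genes, with a median log2 fold change of -0.29. *Dsp*, the desmosomal protein desmoplakin, was at 74.4, 57.5, 50.01, 50.2 and 69.0 CPM against 82.7 to 191 CPM (median 131), *C1ql2*, a complement-like synaptic organiser of mossy fibres, at 72.4, 54.5, 41.9, 54.3 and 68.9 CPM against 84.6 to 137 CPM (median 112), and both had groups apart. *Npnt*, a matrix ligand of integrins, and *Glis3*, a Krüppel-like factor, dropped 1.54-fold and 1.47-fold. *Tdo2*, which degrades tryptophan, rose instead, from 9.44 to 17.02 CPM. *Prox1*, the factor that defines granule cells, was at 65.6 ± 5.03 (SD, n = 5) against 79.4 ± 21.0 CPM (n = 6) and did not pass the test. With each library left out in turn 2 to 6 genes of the list fell, with animal Sample_1160 1 did, and without animals Sample_1371, Sample_1379 and Sample_1385 or with the term for animal numbers none did.

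Of 8 genes of CA1 pyramidal cells 1 passed the test, against 4.53% of all tested genes. This was *Wfs1*, the wolframin of the endoplasmic reticulum. It had 95.3, 96.7, 90.2, 116 and 90.2 CPM against 105 to 278 CPM (median 196), a 2.01-fold drop (edgeR adjusted p = 0.0078), and controls were the more spread. *Cacng5*, an AMPA receptor auxiliary subunit, and *Rgs14*, a brake on plasticity in CA2, fell among 5 CA2 genes, 1.71-fold and 1.30-fold. Of all tested genes 2.52% fell. With animal Sample_1160 1 CA2 gene fell, and with the term for animal numbers none did. Without animals Sample_1371, Sample_1379 and Sample_1385 no gene of the CA1 or CA2 list passed. None of 8 CA3 genes passed the edgeR test (1 had an unadjusted p under 0.05, and DESeq2 called 0). Of 19 interneuron genes *Lamp5* rose, by 0.25 on the log2 scale, and of 12 genes of immature neurons *Bhlhe22* fell by 0.44 on that scale. Of all tested genes 2.01% rose. With animal Sample_1160 or the term for animal numbers no interneuron or immature neuron gene passed. The same held without animals Sample_1371, Sample_1379 and Sample_1385.

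A pair of stem cell genes rose. *Fabp7*, the fatty acid binding protein of radial glia, was at 43.7, 31.8, 43.4, 48.5 and 47.9 CPM against 15.2 to 19.99 CPM (median 18.3) (2.41-fold, edgeR adjusted p = 5.94e-05), and *Hopx*, a homeodomain protein of quiescent stem cells and astrocytes, at 97.7, 94.2, 116, 114 and 111 CPM against 55.8 to 81.2 CPM (median 67.9). Every cKO-/- library exceeded every control in both, as in 1.60% of all tested genes. They were 2 of 10 genes on the list of radial glia-like stem cells, against 2.01% of all tested genes that rose. None of 18 cell division genes passed the edgeR test (3 had an unadjusted p under 0.05, and DESeq2 called 0). *Aqp4*, the water channel of astrocyte endfeet, rose 1.624-fold, the single member to pass the test among 14 astrocyte genes, of which 5 had positive log2 fold changes (median -0.04), and with animal Sample_1160 or the term for animal numbers none passed. *Kcnj10*, a potassium channel of astrocytes, rose 1.38-fold. *Fabp7* and *Hopx* passed the test with animal Sample_1160 and with the term for animal numbers as well. Without animals Sample_1371, Sample_1379 and Sample_1385 only 1 gene of the stem cell list rose.

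Some vascular and meningeal genes rose. Of 12 endothelial genes 5 rose, against 2.01% of all tested genes, and none fell (median log2 fold change 0.50), led by *Itm2a*, a membrane protein, at 46.9, 50.4, 59.8, 58.2 and 68.2 CPM against 38.3 to 42.4 CPM (median 40.7). *Cdh5* and *Pecam1*, adhesion molecules of endothelial junctions, and *Tek* and *Kdr*, receptors of angiopoietin and VEGF, rose between 1.47-fold and 1.59-fold with overlapping groups. *Rgs5*, of pericytes, was the single increase among 8 mural genes, with 26.9, 36.8, 52.7, 43.2 and 49.6 CPM against 20.9 to 25.2 CPM (median 23.3). Of 13 fibroblast genes 3 rose, the matrix proteoglycans *Dcn* (2.46-fold) and *Lum* (1.87-fold) and the GABA transporter *Slc6a13*. The summed endothelial list ran from 293 to 351 CPM in controls and from 302 to 513 in cKO-/-, and the fibroblast list from 110.5 to 508 and from 176 to 579.8. With animal Sample_1160 1 endothelial, 0 mural and 0 fibroblast genes rose. Without animal Sample_1371 1 endothelial gene rose, without control Sample_1192 1 fibroblast gene did, and without the sex term 0 fibroblast genes did. Without animals Sample_1371, Sample_1379 and Sample_1385, or with the term for animal numbers, no gene of the 3 lists passed. Choroid plexus genes, with a median of 1.09 over 8, spanned 147 to 6856 CPM in controls and 169.6 to 8182 in cKO-/-, and none passed the edgeR test, had an unadjusted p under 0.05 or was called by DESeq2.

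Potassium channels, of which 73 were tested, gave 3 increases and 5 decreases, against 4.53% of all tested genes that changed; with animal Sample_1160 they gave 0 and 1, and with the term for animal numbers 1 and 1. *Kcns1* and *Kcng4*, silent subunits that modify Kv2 channels, dropped 1.71-fold and 2.35-fold, with 5.85, 5.85, 5.17, 5.27 and 6.42 CPM against 8.95 to 21.0 CPM (median 11.1) for *Kcng4*. Calcium channel genes gave 3 decreases of 22, against 2.52% of all tested genes that fell. These were *Cacng5*, the T-type *Cacna1h* (1.397-fold) and the R-type *Cacna1e*. *Scn4b*, the beta subunit of resurgent sodium current, dropped 1.75-fold. Of 25 glutamate receptor genes 2 fell and none rose, and among them *Grm2*, a presynaptic inhibitory receptor of granule cells, was at 80.8, 62.4, 54.2, 67.0 and 65.6 CPM against 85.0 to 119 CPM (median 96.5). *Gabra2* was the single increase among 14 GABA receptor genes, against 2.01% of all tested genes that rose. With animal Sample_1160 1 calcium channel gene fell, and no glutamate or GABA receptor gene passed. No gene of these 3 lists passed with the term for animal numbers or without animals Sample_1371, Sample_1379 and Sample_1385.

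Opioid peptide genes went in opposite directions. *Pdyn*, the dynorphin precursor made by granule cells, was at 10.04, 7.16, 7.60, 8.13 and 10.6 CPM against 16.1 to 23.6 CPM (median 19.1), a 2.23-fold drop (edgeR adjusted p = 0.000501). *Penk*, the enkephalin precursor, was at 60.2, 41.8, 42.9, 41.3 and 44.3 CPM against 17.02 to 30.4 CPM (median 26.5), a 1.83-fold rise (edgeR adjusted p = 0.00432). Neither gene's groups overlapped. *Cartpt* rose too, and the other 11 of 14 neuropeptide genes did not pass the test. Of all tested genes 2.01% rose and 2.52% fell. With animal Sample_1160 1 of the 14 rose and 1 fell. With the term for animal numbers 0 of the 14 rose, *Penk* included, and 1 fell. The same counts held without animals Sample_1371, Sample_1379 and Sample_1385.

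Large adhesion and guidance families changed in a few members. Of 53 clustered protocadherins, which give neurons their surface identity, 4 fell and 3 rose, against 2.52% and 2.01% of all tested genes. *Pcdhb5* dropped 2.06-fold with groups apart, and *Pcdhgb7* rose 1.77-fold; members share constant exons, so counts of the gamma cluster are uncertain. Of 20 semaphorins, axon guidance cues, *Sema3d* (2.12-fold), *Sema3e* (1.60-fold), *Sema3c* and *Sema6a* rose and none fell, and none of the 4 passed the test with animal Sample_1160. These lists, like the glucocorticoid lists, were drawn up after values had been seen.

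By edgeR no gene passed the test among 23 HP1, H3K9 and DNA methylation factors, 24 presynaptic and 24 postsynaptic genes, 22 immediate early genes, 19 myelin genes, 15 microglial genes, 6 ependymal genes, 23 interferon and antigen presentation genes or 12 genes of the unfolded protein response. Over all 14 lists with no gene past the edgeR test, 35 of 211 genes (16.6%) had an unadjusted p under 0.05 (against 21.9% of all tested genes) and DESeq2 called 9, of which 3 were myelin, 2 postsynaptic and 2 immediate early genes. Myelin genes had positive log2 fold changes in 17 of 19 (median 0.27) and immediate early genes in 19 of 22 (median 0.25). Single members changed among 79 ribosomal proteins (*Rps4l*, 1.92-fold higher, a retained copy of *Rps4x*), 81 nuclear genes of oxidative phosphorylation (*Atp5g3*, up), 16 of glycolysis (*Gapdh*, up, a gene with many pseudogene copies), 15 chaperones (*Hsp90aa1*, up), 19 Polycomb genes (*Ezh1*, down), 11 of oligodendrocyte precursors (*Cspg4*, down) and 61 autism and intellectual disability risk genes (*Arid1b*, which fell by 0.21 on the log2 scale). *Sqle* and *Cyp51*, enzymes of cholesterol synthesis, rose among 22. Of 16 genes of the growth hormone and IGF axis *Igf1*, a growth factor, and *Socs2*, a feedback inhibitor, rose while the receptor *Igf1r* and the binding protein *Igfbp4* fell, a larger share than the 4.53% of all genes; none of the 16 passed with animal Sample_1160 or with the term for animal numbers. Of 7 aldo-keto reductases tested, *Akr1c13* was the single one to pass the test.

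Markers of neighbouring regions bear on dissection. Of 8 striatal genes *Penk* rose and *Pde10a* and *Drd2* fell, against 2.01% and 2.52% of all tested genes. Of 6 thalamic genes *Prkcd* fell. Of 10 neocortical genes *Rasgrf2* fell, while the other 9 had positive log2 fold changes that did not pass the test. With animal Sample_1160 1 striatal gene rose and no other gene of these lists passed. None passed with the term for animal numbers or without animals Sample_1371, Sample_1379 and Sample_1385. The 5 tested cerebellar genes had a median log2 fold change of -0.47 with control Sample_1129 and 0.08 without it, and none passed the edgeR test, had an unadjusted p under 0.05 or was called by DESeq2. Summed thalamic genes ran from 72.0 to 146 CPM in controls and from 58.2 to 83.7 in cKO-/-. Their part in the results above was not tested.

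**Figure D4:**
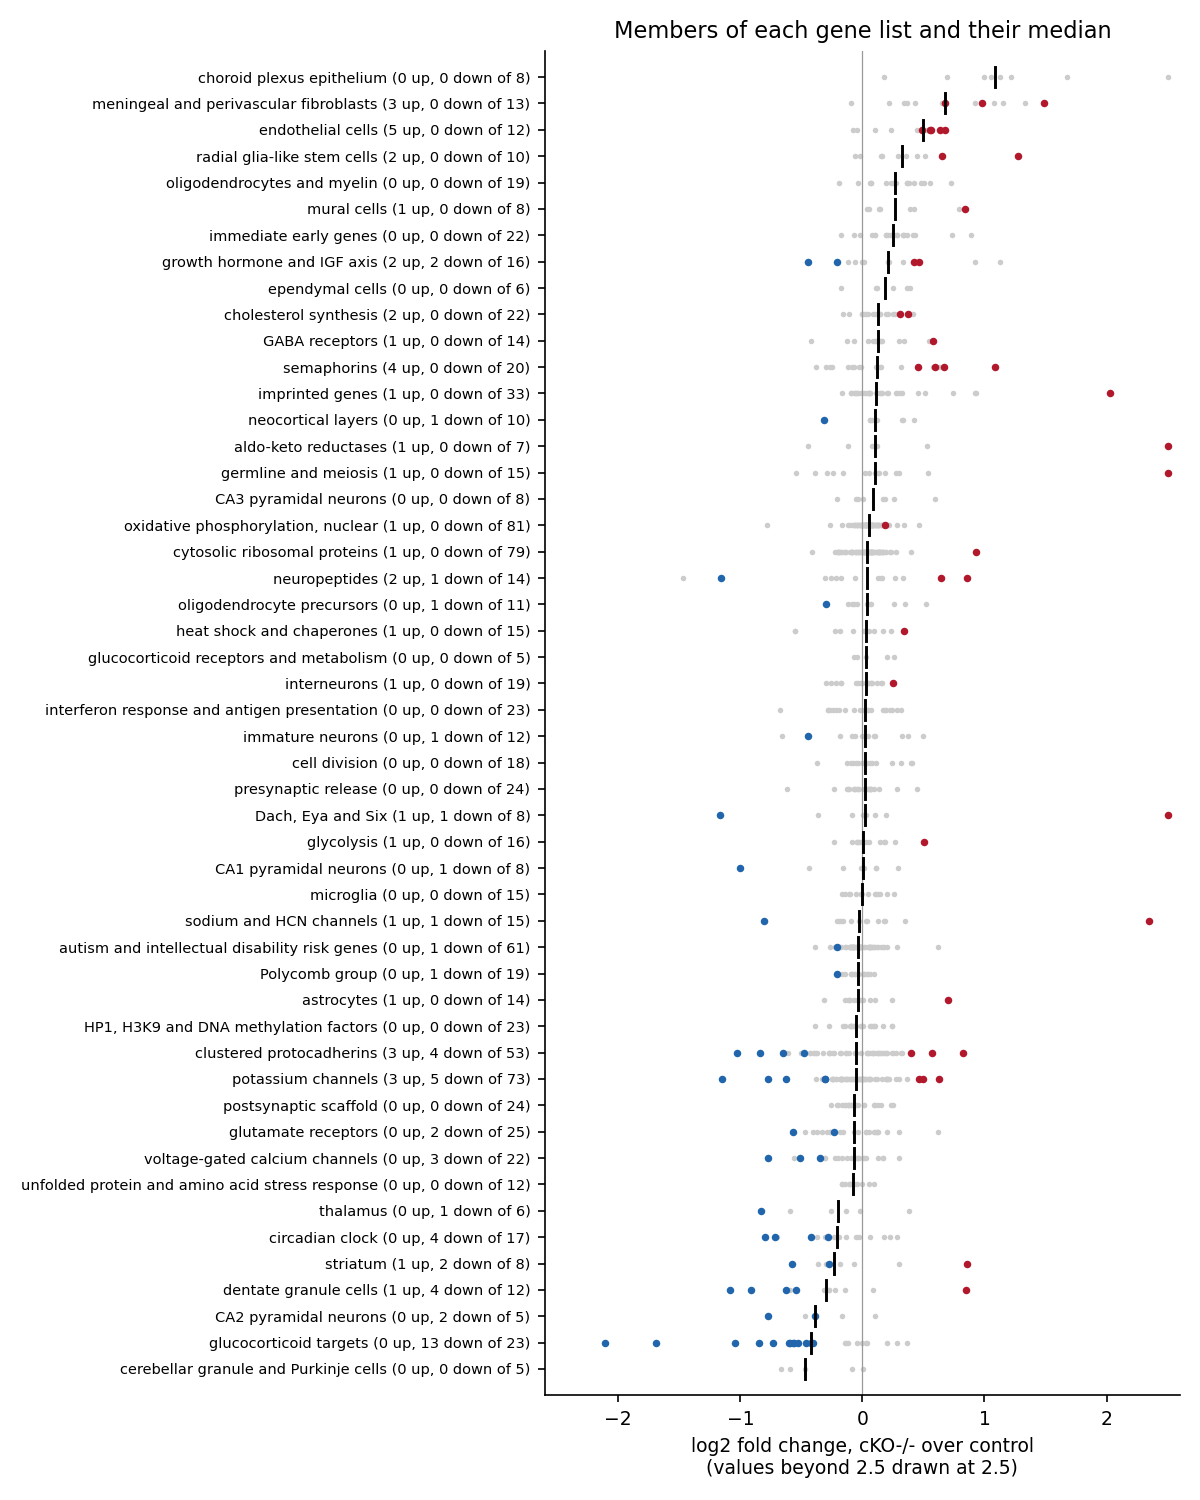
Members of each gene list (points) and their median (black bar) on the log2 fold change of cKO-/- over control (x axis), with upregulated members in red, downregulated members in blue and the rest in grey. Glucocorticoid targets hold 13 blue points of 23, endothelial cells 5 red points of 12, and lists without coloured points have medians from -0.47 (cerebellar genes) to 1.09 (choroid plexus).

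Genes on the X chromosome rose more often than they fell. Of 495 tested, 34 rose and 8 fell (8.48% changed, against 4.53% of all genes), with a median log2 fold change of 0.089 against 0.0020 on autosomes. Chosen after their values were seen, *Gpr101*, an orphan receptor that lies next to *Gm364* on the opposite strand (chrX:57496668-57503757), was at 19.5, 28.8, 33.3, 29.0 and 17.5 CPM against 5.47 to 11.9 CPM (median 9.72), and *Prdx4*, a peroxiredoxin, rose 1.69-fold. *Klhl13*, a ubiquitin ligase adaptor, had 45.9, 48.5, 55.4, 51.8 and 55.1 CPM against 25.7 to 32.7 CPM (median 27.6). X-linked transcripts were lower in GC content (median 46.3% against 50.7% on autosomes), and with each library's trend on GC content removed 32 rose and 8 fell with a median of 0.056. With animal Sample_1160, 9 rose and 1 fell. With the term for animal numbers 7 rose and 0 fell (median 0.068). Without animals Sample_1371, Sample_1379 and Sample_1385 4 rose and 0 fell (median 0.040).

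Direction followed the GC content of the transcript. GC content was known for 12689 of the 14212 genes (89.3%), and its Spearman rho with the log2 fold change was -0.41 across genes, which are not independent. Median GC content was 45.3% in upregulated, 55.2% in downregulated and 50.5% in unchanged genes. Among the 2538 genes with the lowest GC content (33.0% to 44.6%) 119 rose and 6 fell, and among the 2538 with the highest (56.3% to 72.9%) 12 rose and 136 fell. Libraries differed in the same measure, with rho between GC content and the deviation from the mean at -0.515, -0.493 and -0.418 in cKO-/- Sample_1371, Sample_1379 and Sample_1385, 0.117 in Sample_1219 and 0.474 in Sample_936, while controls ran from -0.122 to 0.414. Among cKO+/- libraries rho was -0.316 in Sample_1433, the animal with the highest number, and 0.107 to 0.478 in the others. Whether these trends go with genotype or with animal number was not tested. With these trends removed 675 genes changed (313 up, 362 down), 552 of them among the 644 with the same direction. The lowest set then held 96 increases and 34 decreases and the highest 42 and 101. Among glucocorticoid targets 12 fell after this step, and among clock genes 7.

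**Figure D5:**
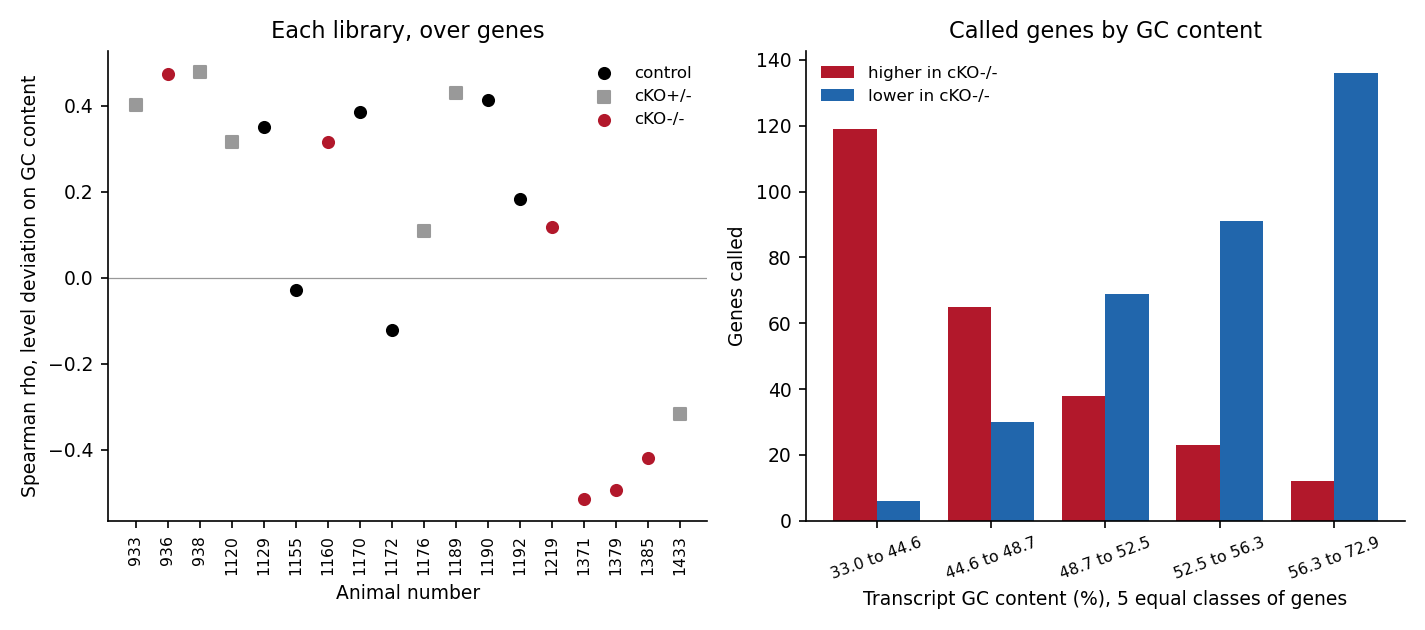
Left, Spearman rho between transcript GC content and each hippocampal library's deviation from the mean of the 11 (y axis), by animal number (x axis), with controls in black, cKO+/- as grey squares and cKO-/- in red, animal Sample_1160 included. Right, changed genes in 5 equal classes of transcript GC content, with increases (red) going from 119 to 12 and decreases (blue) from 6 to 136.

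The effect in the hippocampus was set against that in the cerebellum of the same 11 animals, to find where it differed. Of 13447 genes above the level minimum in both tissues, the change differed in 334 (2.48%, edgeR interaction term), being lower in the hippocampus in 274 and higher in 60. *Cpne4*, a calcium-dependent membrane protein abundant in the hippocampus, had a mean of 154 CPM in both groups there. Its cerebellar means were lower, at 1.59 CPM in controls and 11.2 in cKO-/-. In this joint fit its log2 fold changes were -0.01 in the hippocampus and 2.87 in the cerebellum. *Npnt* (-0.63 in the hippocampus and 1.41 in the cerebellum), *Wfs1* (-1.01 and 0.25), *Dach1* (-1.17 and 0.17), *Pdzd2* (-0.97 and 0.59) and *Itga11* (-1.16 and 0.59) also differed; the cerebellar values were not tested on their own here. *Penk* differed the other way (0.85 and -0.13). *Itga11* was low in the cerebellum, with means of 1.03 CPM in controls and 1.54 in cKO-/-. *Dmp1* had log2 fold changes of 1.22 and 1.74, the smaller in the hippocampus (edgeR adjusted p = 0.00489). None of the 23 glucocorticoid targets differed at the threshold (*Arrdc2* did with the animal as a block and GC offsets, at an edgeR adjusted p of 0.0374), with *Hif3a* at -1.70 and -2.05 and *Plin4* at -2.12 and -1.99. With the animal as a block 229 genes differed, of which 198 were among the 334.

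A difference of the cKO-/- effect between males and females was looked for with an interaction term. No gene of 14212 passed (0%), with 3 male and 2 female cKO-/- animals. At an unadjusted p under 0.05 1563 genes did, and DESeq2 called 112. The lowest edgeR adjusted p was 0.29.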

How the data were processed

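Poly(A) RNA of adult hippocampi was sequenced from both ends by the authors, and the deposited values are raw counts per gene, without normalization; per the labels, reads were aligned with STAR 250a to mm9, while the coordinates in the table match GRCm38. The annotation release, strand and treatment of reads on several genes are not given in the sources used here, so counts of overlapping or near-identical genes are uncertain. Genes above 1 CPM in at least 5 of the 11 libraries were tested with edgeR 4.0.16 (R 4.3.3; TMM factors, quasi-likelihood F-test in its legacy form, terms for sex and genotype, Benjamini-Hochberg adjustment at 0.05); fold changes are cKO-/- over control. Totals of 17609321 to 45544188 counts limit the precision of genes near 1 CPM. Replicates are separate animals.

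Members and gene lists were chosen with earlier results of these data known, and the glucocorticoid, cerebellar, protocadherin and semaphorin lists after values were seen. Named genes were *Pogz*, *Dach2*, *Akr1c13* and *Gm364*, the 12 increases and 12 decreases with the lowest adjusted p and groups apart, the 5 largest changes each way, up to 4 changed members per list with the lowest p, and the 5 lowest p of each interaction test; further members were named after their values were seen, and a few genes are not reported here.

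GC content came from the longest coding transcript of each gene, and promoter windows from RefSeq (GRCm38.p6). For the tissue difference, animals pair the libraries by label; the deviations of an animal's 2 libraries correlated with a median of 0.0847 (from -0.125 to 0.370), and the block fit is given beside the result. Alternatives were animal Sample_1160, all 17 hippocampal libraries, RLE factors, DESeq2 1.42.0, no filter, the study's filter, no sex term, the bias-adjusted fit, thinning to equal totals, offsets for transcript length, a term for animal numbers, each library left out and, chosen after seeing the data, offsets for GC content, a *Ttr* term and the removal of animals Sample_1371, Sample_1379 and Sample_1385. The term for animal numbers used all 17 hippocampal libraries. The test was checked on simulated counts. A list of mitochondrially encoded genes had 0 members in the table.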

Additional observations from a re-analysis of the deposited data

Results flagged for a closer look

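Within groups, 11 of 190 sets of 5 or 6 libraries had a library far from the others by Dixon's criterion, where chance gives about 1 in 20. Animal Sample_936 of the cKO-/- group was highest in 4 of them, *Rps4l* (50.7 CPM), *Lamp5* (57.7), *Penk* (60.2) and *Kcns1* (9.65), where the nearest other cKO-/- value was 40.2, 48.0, 44.3 and 7.47 CPM. In *Rps4l*, *Lamp5* and *Penk* this animal lay farther from controls than the rest, and in *Kcns1* nearer to them. Animal Sample_1385 was highest for *Pdzd2* (64.9 CPM) and *Lum* (17.3), animal Sample_1371 for *4930447C04Rik* (37.6) and animal Sample_1379 for *Wfs1* (116). Among controls, Sample_1155 was highest for *Cyp51* (71.4 CPM), Sample_1172 for *A730017C20Rik* (46.2) and Sample_1129 lowest for *Hsp90aa1* (201).

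The cKO-/- effect differed between hippocampus and cerebellum in 334 genes by the edgeR interaction term, and the 5 with the lowest p were *Cpne4*, *Npnt*, *A730017C20Rik*, *Kcnh3* and *Chsy3*. The difference, hippocampus minus cerebellum on the log2 scale, was -2.88 for *Cpne4*, -2.04 for *Npnt*, -1.62 for *A730017C20Rik*, 1.91 for *Kcnh3* and -2.98 for *Chsy3*. Of these, *Npnt* and *A730017C20Rik* changed in the hippocampus. *Chsy3* was low in the cerebellum of controls, at 0.202 CPM, against 1.89 in cKO-/-.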

How the results depend on the processing

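The 644 changed genes became 130 with animal Sample_1160 and 1256 with DESeq2. They became 82 with the term for animal numbers, fitted over 17 libraries, and 65 without animals Sample_1371, Sample_1379 and Sample_1385. Of these 130, 1256, 82 and 65 genes, 130, 644, 81 and 60 were among the 644 with the same direction. With 1 library left out in turn the count ran from 346 (without cKO-/- Sample_1379) to 1363 (without cKO-/- Sample_936), and it was 375 and 415 without controls Sample_1190 and Sample_1192 and 380 without cKO-/- Sample_1371. The share upregulated, 44.4%, was 48.7% over 17 hippocampal libraries, 59.8% with the term for animal numbers and 52.3% without the 3 animals. Genes with groups apart numbered 306 with animal Sample_1160 and 547 to 1174 with 1 library left out, the highest without Sample_936. Tissue differences numbered 96 with animal Sample_1160, 229 with the replicate block, 292 with the block and GC offsets and 157 (without cKO-/- Sample_1385) to 532 (without cKO-/- Sample_1219) with 1 animal left out; the 5 named genes passed in both block fits. The sex difference gave 112 genes with DESeq2 and 0 to 2 with 1 library left out. *Pogz* was at 66.3% to 68.8% of controls in every setting run. The hippocampal log2 change of *Cpne4*, which did not pass, turned to -0.012 with animal Sample_1160, to -0.0053 without a filter, to -0.0049 when thinned, to -0.060 with the term for animal numbers, to -0.051 with GC offsets and to -0.13 without the 3 animals, and ran from -0.051 to 0.061 with 1 library left out. That of *Kcnh3* turned to 0.061 with animal Sample_1160 and 0.000277 without the 3 animals, and that of *Chsy3* to -0.096 with the term for animal numbers and -0.034 without them. The causes were not tested. Of the 95 named genes, 89 kept their direction and side of the threshold with GC offsets, 95 with DESeq2, 43 with animal Sample_1160, 32 with the term for animal numbers and 31 without the 3 animals.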
